A study of Drosophila melanogaster with 2 samples.

Results

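The nuclear genes for the respiratory chain and the ATP synthase of Drosophila melanogaster were followed in a map of chromatin occupied by Broad. A protein-coding gene entered the group when its Ensembl symbol began with ND-, Sdh, UQCR, COX or ATPsyn, the prefixes of complexes I, II, III, IV and V. The rule found 88 genes among the 13968 nuclear protein-coding genes of the annotation. By complex, 40 genes belonged to complex I, 8 to complex II, 9 to complex III, 16 to complex IV and 15 to complex V. The prefix also brought in Sdhaf3, an assembly factor of complex II and not a subunit, and 24 genes named as duplicates, whose symbols are that of a subunit with L or L and a digit added. ND-MNLL also ends in L but is a subunit in its own right and is not among the 24. Subunits with other symbols, among them ox, RFeSP, levy, blw and sun, are missed by the prefixes. The counts per complex therefore do not cover whole complexes, and those genes are described separately below.

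The chromatin came from whole wandering larvae, in the third instar, of a transgenic strain, br-RJ-GFP, in which the RJ product of the broad gene (br) carries GFP at its C-terminal end. Males and females were pooled, the age in hours is unknown per the labels, and the promoter that drives the fusion is not given in the sources used here. There was 1 group with 2 biological replicates, precipitated with an antibody against GFP, and no other genotype, stage or treatment to compare it with. Peaks from whole larvae mix all tissues, so occupancy in few cells and weak occupancy in many cells cannot be told apart.

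The respiratory chain passes electrons from NADH (complex I) and succinate (complex II) to ubiquinone, then through complex III and cytochrome c to oxygen at complex IV. Complexes I, III and IV pump protons across the inner mitochondrial membrane, and the ATP synthase, complex V, uses the return flow to make ATP. Broad is a family of zinc finger transcription factors induced by the steroid hormone ecdysone, which peaks as larvae leave the food and prepare to pupariate.

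A gene was called bound when the summit of a peak in the authors' reproducible (optimal IDR) set of 6635 peaks was no more than 1000 bp from an annotated transcription start site of that gene. By this call 20 of the 88 respiratory genes were bound, a share of 22.7%, against 24.3% of all protein-coding genes. A further 17 respiratory genes (19.3%) had only a weak peak, against 21.9% of all genes. A weak peak here is a summit of the longer list of 30000 entries from the pooled replicates, with none of the reproducible set in the window. That list holds peaks and background prepared for the IDR step, so a weak peak may be background. At the respiratory genes the −log10 q value of the weak peaks ran from 0.295 at UQCR-11 to 3.31 at ND-39. The remaining 51 respiratory genes (58%) had no listed peak, which here means none in the pooled list, against 53.7% of all genes. Among these 51, ND-24 and ND-42 did lie within 1000 bp of one of the 6635 strongest summits in the own list of replicate 2. The group as a whole was thus bound at about the share of any protein-coding gene.

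The bound respiratory genes also carried peaks of ordinary height. The authors' pooled signal value, whose scale is not stated, had a median of 142 over the 20 bound respiratory genes and 164 over all 3399 bound genes. It ranged from 86.8 to 561 among the respiratory genes and from 80 to 2881 among all bound genes. The median of all bound genes was exceeded by 7 of the 20 respiratory genes. A signal of 500 or more was reached by 1 of them (5.00%), against 9.94% of all bound genes.

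**Figure D1:**
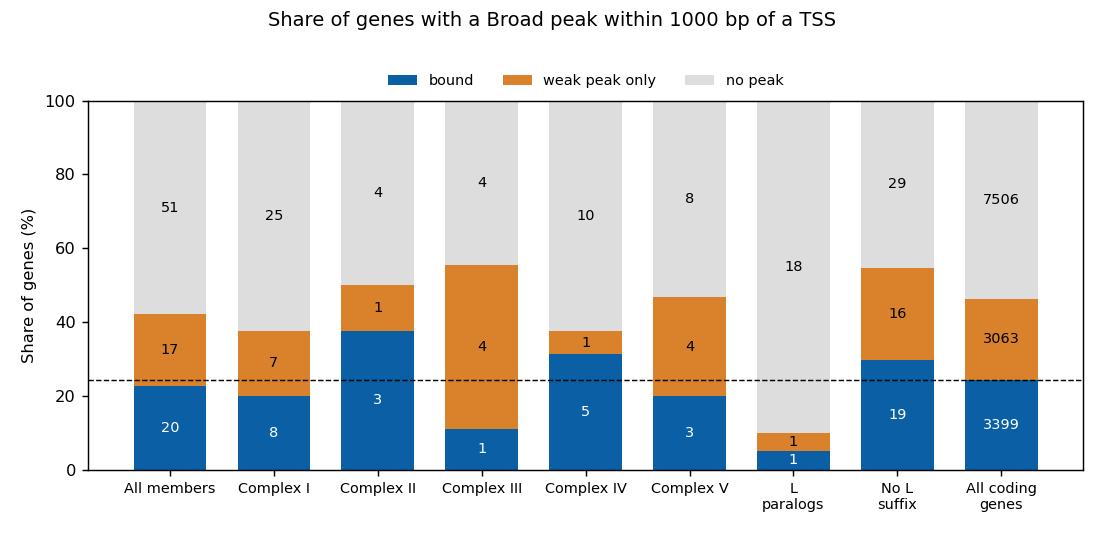
Share of genes, in percent, that were bound, had only a weak peak or had no peak of the pooled list within 1000 bp of a transcription start site; numbers in the bars are genes, and the dashed line marks the bound share of all coding genes. The 88 respiratory genes, at 22.7% bound, lie close to all coding genes at 24.3%. The paralogs with an L suffix, at 5.00%, and complexes II and IV, at 37.5% and 31.2%, lie on opposite sides of that line. With each summit counted only for its nearest start (not drawn), complexes II and IV stood at 12.5% and 18.8%, against 18.8% of all coding genes.

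Sequence under the summits is shown for bound genes to make visible what the summits have and lack, as the strongest summit of each gene with 50 bases to either side. All were read from the RefSeq sequence of release 6 (the dm6 build) in the direction of the named gene. Capitals mark matches on either strand to the motifs searched. TATAAA gives the letters of the TATA box, but it was searched at any distance from a start, so a match need not be a TATA box. The GAGA element was searched as GAGAG. The insulator protein BEAF-32 is known to bind CGATA, and the replication-related factor DREF the longer TATCGATA, which contains it. TTANNTAA was searched without a named factor. AAACTA and, separately, the letters TAAACA complete the capitals. The last 2 were searched as candidate core letters for Broad proteins, and no source used here ties them to the RJ product. The first set has no CGATA and is rich in A and T, at ND-ASHI (chrX:6679335-6679435, minus strand), ND-75 (chrX:8252414-8252514, minus strand), ATPsynE (chr3R:14327806-14327906, plus strand), ND-SGDH (chr3L:12138575-12138675, minus strand) and COX7B (chr3L:17425279-17425379, plus strand):
ND-ASHI: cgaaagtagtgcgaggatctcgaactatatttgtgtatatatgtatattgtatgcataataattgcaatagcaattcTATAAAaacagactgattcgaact
ND-75: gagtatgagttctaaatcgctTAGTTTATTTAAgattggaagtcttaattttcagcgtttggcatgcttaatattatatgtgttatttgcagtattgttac
ATPsynE: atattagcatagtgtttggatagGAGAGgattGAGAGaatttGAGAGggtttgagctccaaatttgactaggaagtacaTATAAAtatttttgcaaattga
ND-SGDH: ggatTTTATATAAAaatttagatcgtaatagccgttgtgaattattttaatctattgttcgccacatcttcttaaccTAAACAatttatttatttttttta
COX7B: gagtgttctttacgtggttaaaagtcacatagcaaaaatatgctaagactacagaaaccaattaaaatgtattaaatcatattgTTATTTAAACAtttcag
The ATPsynE window holds 3 copies of GAGAG upstream of its TATAAA. In ND-SGDH the TATAAA overlaps a TTANNTAA, and in COX7B a TTANNTAA runs into a TAAACA.

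The second set holds CGATA. Both sets were picked for display from the bound genes. The strongest respiratory summits, at ND-ASHI, ND-75, ATPsynE, ND-MWFE and ND-SGDH, lack CGATA, while ATPsynbeta, at 222.2, has it. ND-B18, at 86.8, also lacks it. The ND-B18 window has a GC content of 52.5%, so windows without CGATA are not all rich in A and T. The second set comes from COX6B (chrX:19744337-19744437, minus strand), ND-13B (chr3L:10694083-10694183, minus strand), ND-MNLL (chrX:7893802-7893902, minus strand) and SdhC (chr3R:11210146-11210246, minus strand):
COX6B: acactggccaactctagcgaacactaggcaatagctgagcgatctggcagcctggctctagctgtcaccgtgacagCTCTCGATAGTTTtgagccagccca
ND-13B: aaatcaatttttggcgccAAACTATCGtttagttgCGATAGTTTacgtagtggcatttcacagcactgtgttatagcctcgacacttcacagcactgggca
ND-MNLL: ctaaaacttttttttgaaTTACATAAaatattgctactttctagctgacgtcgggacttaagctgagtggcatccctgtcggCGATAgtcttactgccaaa
SdhC: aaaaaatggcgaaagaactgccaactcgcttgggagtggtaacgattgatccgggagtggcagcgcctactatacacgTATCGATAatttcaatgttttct
In ND-13B the letters form an inverted pair, in which each CGATA shares bases with an AAACTA. In COX6B the GAGA element, the BEAF-32 core and an AAACTA overlap in 1 run. In SdhC the BEAF-32 core is part of a full DREF element.

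Over the summit windows of all 20 bound respiratory genes, CGATA was found in 8 (40%), against 21.1% of the 2502 windows at the strongest summits of all bound genes. TATAAA was found in 7 windows (35%), against 16.7% over all bound genes. AAACTA and TAAACA were each in 5 windows (25%), against 10.4% and 13.5%, and TTANNTAA was in 5 (25%), against 9.71%. TATCGATA was in 2 windows (10%), those of SdhC and UQCR-14, against 3.0%, and GAGAG in 2 (10%), against 12.8%. The median GC content of the windows was 40.6% over the respiratory genes, from 22.8% to 55.4%, and 38.6% over all bound genes. These are matches of letters in 20 windows, and no test was made of them.

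Complex I, the NADH dehydrogenase, had 8 bound genes of 40 (20%), 7 with a weak peak and 25 with none. The strongest respiratory peak lay at ND-ASHI (FBgn0029888), the fly counterpart of human NDUFB8 in the membrane arm. Its pooled signal was 561, rank 324 of the 30000, with 302 in replicate 1 and 289 in replicate 2. The summit, at position 6679385 of chromosome X, lay 267 bp upstream of the ND-ASHI start, inside an intron of its neighbour Fum1, the fumarase gene. ND-75 (FBgn0017566), counterpart of human NDUFS1 and a core subunit that carries iron-sulfur clusters, had a pooled signal of 317, with 145 in replicate 1 and 162 in replicate 2. That summit was intergenic and lay 777 bp upstream of the gene. ND-MWFE (human NDUFA1) followed at 242, with 127 in replicate 1 and 114.5 in replicate 2, and ND-SGDH (human NDUFB5) at 222.2, with 127 in replicate 1 and 93.5 in replicate 2. ND-SGDH had another reproducible summit of 196 in the window.

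The other 4 bound complex I genes had pooled signals below the median of all bound genes. ND-13B (human NDUFA5) stood at 132, with 75.1 in replicate 1 and 50.8 in replicate 2, and its summit lay 25 bp upstream of the start. ND-MNLL (human NDUFB1) stood at 121, with 53.0 in replicate 1 and 74.2 in replicate 2. ND-B22 (human NDUFB9) stood at 119.2, with 57.9 in replicate 1 and 61.3 in replicate 2. ND-B18 (human NDUFB7) was the weakest bound respiratory gene at 86.8, with 46.4 in replicate 1 and 35.5 in replicate 2. The −log10 q value was 3.60 at ND-B18 and 4.02 at every other bound respiratory gene. That value, the highest in the reproducible set, was held by 78.9% of its peaks, so it does not set these genes apart.

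By role within complex I, 5 of the 8 bound genes belonged to 1 series of the membrane arm. Of the 10 genes of the B series, whose human counterparts are named NDUFB and which line the distal membrane arm, 5 were bound (50%): ND-ASHI, ND-SGDH, ND-MNLL, ND-B22 and ND-B18. Of the 7 nuclear core genes, which carry the flavin and iron-sulfur clusters, ND-75 alone was bound and ND-23 had a weak peak. Of the other 17 accessory genes without an L suffix, ND-MWFE and ND-13B were bound and 5 had a weak peak. The counts are small, the grouping was made with the calls known, and no difference between these roles was tested.

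Complex II, succinate dehydrogenase, had 3 bound genes of 8 (37.5%), and all 3 encode subunits. SdhA, the flavoprotein that oxidizes succinate, had a pooled signal of 143, with 72.5 in replicate 1 and 71.0 in replicate 2. SdhD, a membrane anchor, had 146, with 82 in replicate 1 and 61.8 in replicate 2, and its summit lay 16 bp upstream of its start with no other coding start in the window. SdhC, the other anchor, had 120, with 70.1 in replicate 1 and 45.8 in replicate 2. SdhB, the iron-sulfur subunit, had only a weak peak of 61.0, matched in replicate 1 at 35.0 and within 100 bp of no summit in replicate 2. All 4 subunits thus had a listed peak in the window. Sdhaf3 and the 3 duplicates SdhAL, SdhBL and SdhCL had none, as did 53.7% of all protein-coding genes. Of the 3 bound genes, SdhD alone had the start nearest to its summit, and the SdhA and SdhC summits lay nearer to another gene.

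Complex III, cytochrome bc1, had 1 bound gene of 9 (11.1%) and 4 with a weak peak. The bound gene was UQCR-14, counterpart of human UQCRB. Its pooled signal was 102, with 66.9 in replicate 1 and 34.3 in replicate 2, and the summit lay 19 bp upstream of the start in the 3′ untranslated region of CG32576. UQCR-C2, a core protein of the matrix side, had a weak peak of 46.1, with 35.2 in replicate 1 and 16.3 in replicate 2. Its partner UQCR-C1 had no listed peak.

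Complex IV, cytochrome c oxidase, had 5 bound genes of 16 (31.2%), 1 with a weak peak and 10 with none. COX7B stood at 193, with 107 in replicate 1 and 86.5 in replicate 2. COX5A, a subunit on the matrix side, stood at 144, with 79.4 in replicate 1 and 66.4 in replicate 2, and COX6B, on the intermembrane side, at 142, with 72.5 in replicate 1 and 61.2 in replicate 2. COX7C stood at 103, with 63.4 in replicate 1 and 40.6 in replicate 2. COX7AL2, a duplicate of COX7A, had a summit of 122 in its own intron, 696 bp downstream of a start. COX4, whose human counterpart is the largest nuclear subunit, had no listed peak.

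Complex V had 3 bound genes of 15 (20%) and 4 with a weak peak. ATPsynE, subunit e of the membrane part, had a pooled signal of 245, with 118 in replicate 1 and 123 in replicate 2. Its summit, at position 14327856 of arm 3R, lay past the gene's 3′ end at 14327735, 788 bp downstream of the nearer of its 2 starts and 195 bp from the start of spn-B. ATPsynbeta, the catalytic subunit, had 222.2, with 112 in replicate 1 and 110 in replicate 2, at a summit 20 bp upstream of the nearest of its starts, and another summit of 154. ATPsynC, which forms the rotating c ring, had 119.2, with 71.7 in replicate 1 and 49.8 in replicate 2. The gamma subunit of the central stalk and subunits b and O of the peripheral stalk had no listed peak at ATPsyngamma, ATPsynB and ATPsynO.

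**Figure D2:**
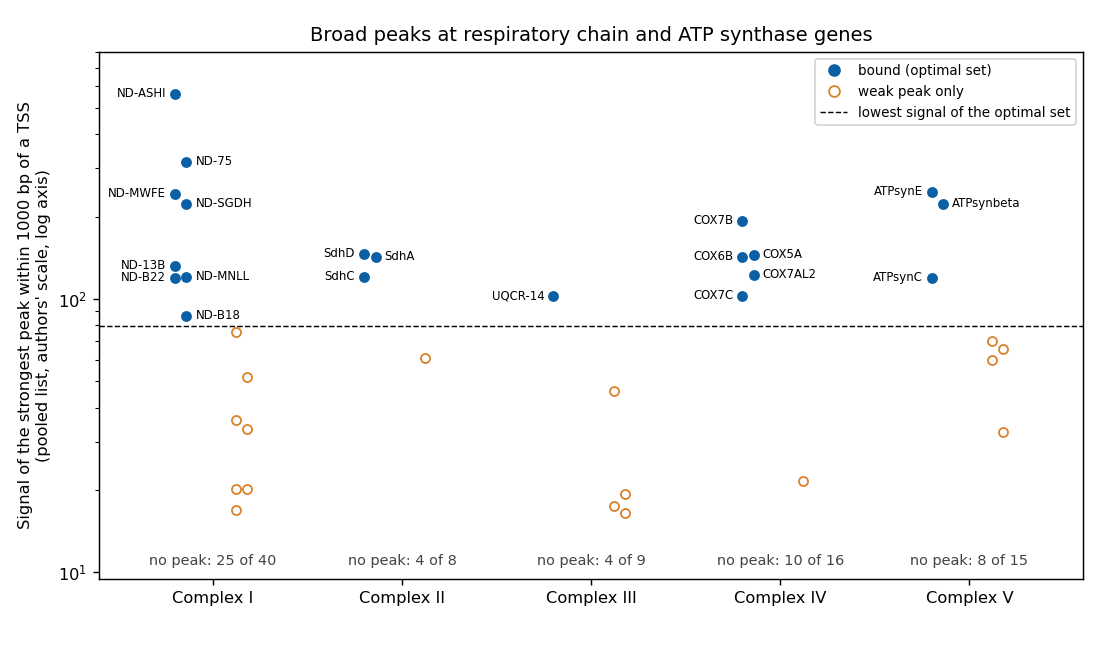
Signal of the strongest peak within 1000 bp of a transcription start site in the pooled list (log axis, the authors' scale) for each respiratory gene with a peak, by complex; filled points are bound genes, open points have only a weak peak, and the dashed line marks the lowest signal of the reproducible set, 79.96. ND-ASHI at 561 stands above every other respiratory gene, and each complex has both bound genes and weak peaks.

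The signals of the replicates were set side by side as deposited. Each replicate's list has its own scale, which is not stated, so a ratio between them is given beside the same ratio over all bound genes. Of the 20 bound respiratory genes, 19 had a summit within 100 bp in both replicates' own lists, and all 19 pairs of signals lay within 2-fold of each other, against 95.9% of all matched bound genes. Replicate 1 was higher at 15 of the 19 (78.9%), against 54.2% of all matched bound genes. The median ratio of replicate 1 to replicate 2 was 1.20 over the respiratory genes and 1.02 over all bound genes. UQCR-14 had the widest gap, a log2 ratio of 0.96. COX7AL2 was the unmatched gene: replicate 1 gave 55.2, and the nearest summit of replicate 2, at 95.5, lay 139 bp away. With 2 replicates of 1 group, this spread is all the error that can be given.

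**Figure D3:**
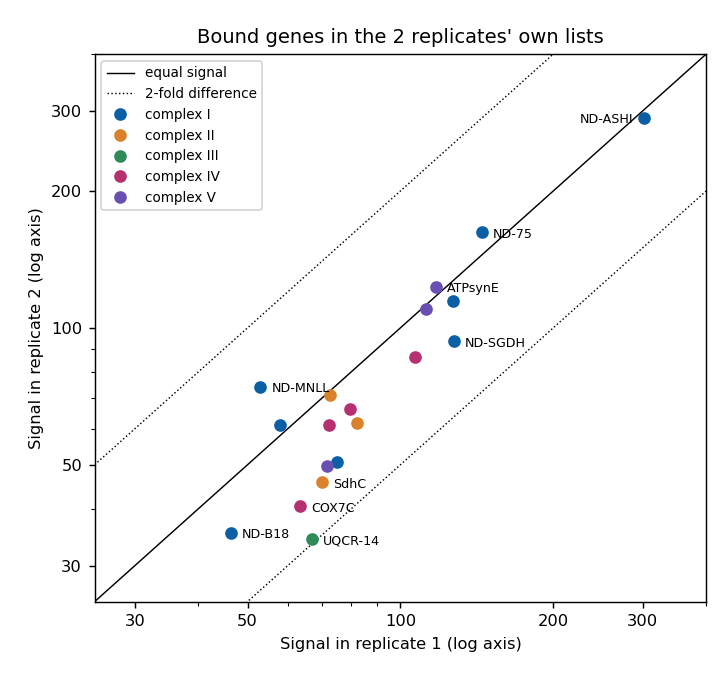
Signal in replicate 2 against signal in replicate 1 (both log axes, each replicate's own list) for the 19 bound respiratory genes matched in both, coloured by complex; the solid line marks equal signal and the dotted lines a 2-fold difference. All points lie within the dotted lines, most lie below the solid line, and UQCR-14 lies nearest to the 2-fold limit.

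Many of these peaks could be given to a neighbour as well. At 15 of the 20 bound respiratory genes (75%) the strongest summit also lay within 1000 bp of a start of another protein-coding gene, against 53.5% of all bound genes. A reproducible summit with the gene's own start as the nearest was found at 12 respiratory genes, or 13.6% of the 88, against 18.8% of all protein-coding genes. The 8 others were ND-ASHI, ND-75, ATPsynE, ND-MWFE, COX7B, SdhA, COX6B and SdhC, among them the 4 strongest respiratory peaks. At ND-ASHI its own start was 267 bp away and the Fum1 start 255 bp, so that distance hardly separates a subunit of the respiratory chain from an enzyme of the Krebs cycle. At SdhA its own start was 810 bp away and that of cer 9 bp, and at SdhC its own was 347 bp away and that of Tctp 51 bp. At ND-75 the own start was 777 bp away and CG1632 206 bp, and at ND-MWFE the own start was 170 bp away and TppII 51 bp. COX6B and COX7B differed by less: the own start lay at 52 bp against 44 bp for the neighbour at COX6B, and at 148 bp against 112 bp at COX7B. ND-MNLL is counted among the 12 through a tie: its own start and that of CG45089 both lay 54 bp away. The 5 bound genes with no other coding start in the window were SdhD, COX7AL2, ATPsynC, ND-B22 and UQCR-14.

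**Figure D4:**
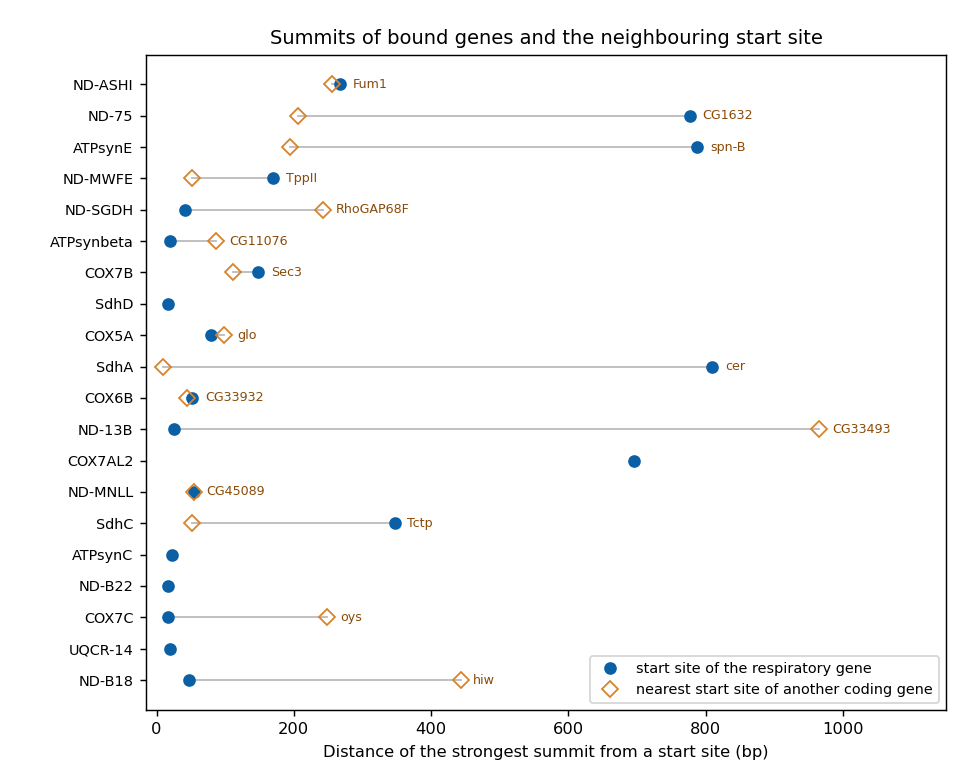
Distance in bp of the strongest summit from the nearest start site of each bound respiratory gene (filled points) and from the nearest start site of another coding gene within 1000 bp (open diamonds, named), with genes ordered by signal from the top. In the upper rows the point often lies farther from 0 than the diamond, as at ND-75 with 777 bp against 206 bp, while most of the weaker genes have their own start within 100 bp.

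Most summits at respiratory genes lay at the start itself. The median distance from the nearest own start was 53 bp over the 20 bound respiratory genes and 167 bp over all bound genes. A summit within 100 bp of the start was found at 12 respiratory genes (60%), against 31.9% of all bound genes, and within 500 bp at 16 (80%), against 79.7%. The summit was upstream of the start at 16 of the 20 (80%), against 76.6% of all bound genes. The exceptions were ATPsynE and COX7AL2, far into or past the gene, and ATPsynC and COX7C, at 23 and 17 bp downstream.

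The duplicates carried few peaks. Of 20 genes whose symbol is that of another group member with L or L and a digit added, COX7AL2 alone was bound (5.00%), UQCR-11L had a weak peak of 17.5, and 18 had no listed peak. Most of the 20 are under 1000 bp long, and most have 1 annotated start. Of all protein-coding genes, 10.8% of those under 1000 bp and 17.5% of those with 1 start were bound. The part of length and start number in the low share of the duplicates was not tested. Several such duplicates are known for expression in the testis. Of the 18 genes they are named after, 5 were bound (27.8%) and 4 had a weak peak. The 4 genes with an L suffix whose counterparts are named otherwise, COX6AL, COX6AL2, COX6CL and ATPsynepsilonL, had no listed peak. With all 24 set aside, 19 of 64 respiratory genes were bound (29.7%) and 16 had a weak peak, against 24.3% bound among all protein-coding genes. On that count complex IV had 4 of 8 bound, complex II 3 of 5, complex V 3 of 11, complex I 8 of 34 and complex III 1 of 6.

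Weak peaks supported by both replicates were found at 7 respiratory genes (7.95%), against 12.1% of all protein-coding genes. ND-39, counterpart of human NDUFA9, had the strongest, a pooled signal of 75.7 with 42.0 in replicate 1 and 35.5 in replicate 2. It lies just outside the reproducible set, whose lowest signal is 79.96, and ND-B18 at 86.8 lies just inside. ATPsynCF6, a peripheral stalk subunit, had 65.7, with 29.3 in replicate 1 and 33.8 in replicate 2. ATPsynD, of the same stalk, had 59.9, with 42.5 in replicate 1 and 29.7 in replicate 2. ND-B8 (human NDUFA2) had 51.8, with 26.2 in replicate 1 and 24.1 in replicate 2, and UQCR-C2 the values given above. ND-ACP, the mitochondrial acyl carrier protein, had 36.1, with 25.1 in replicate 1 and 9.67 in replicate 2, where the list itself ends at 9.38. ATPsyndelta, of the central stalk, had 32.6, with 17.6 in replicate 1 and 13.7 in replicate 2. The other 10 weak peaks ran from 16.5 at UQCR-11 to 70.2 at ATPsynF, and each lacked a match in at least 1 replicate. ND-MLRQ, whose human counterpart NDUFA4 is also counted with complex IV, was among them at 33.3.

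Several unbound genes lay just beyond the distance limit. The nearest reproducible summit was 1065 bp from a start of UQCR-Q and 1195 bp from UQCR-C2. It was 1562 bp from ATPsynD, 1590 bp from ND-39, 1607 bp from ATPsyndelta and 1774 bp from COX7CL.

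The respiratory genes are short and crowded, and the bound share of all genes varied with both features. Median gene length was 1097 bp over the respiratory genes and 2164.5 bp over all protein-coding genes. Among genes under 1000 bp, 7 of 37 respiratory genes were bound (18.9%), against 10.8% of all genes of that length. From 1000 to under 2000 bp it was 7 of 33 (21.2%), against 18.1%, and from 2000 to under 5000 bp 5 of 12 (41.7%), against 27.1%. At 5000 bp or more 1 of 6 was bound (16.7%), against 38.4%. With 1 annotated start, 7 of 53 respiratory genes were bound (13.2%), against 17.5% of all genes. With 2 starts it was 10 of 30 (33.3%), against 36.1%, and with 3 or more 3 of 5 (60%), against 59.5%.

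Another coding start within 1000 bp was present at 58% of the respiratory genes, against 42.8% of all genes. Of the 51 respiratory genes with such a neighbour 16 were bound (31.4%), against 34.4% of all such genes. Of the 37 without a neighbour 4 were bound (10.8%), against 16.8%. By chromosome arm the share was highest, among arms with more than 2 members, on X, where 6 of 13 respiratory genes were bound (46.2%), against 24% of all X genes. The part of length, start number and neighbours in the bound share of the group was not tested.

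The promoters of the group, taken as 250 bases before to 50 after the most upstream start, were searched for the same motifs and for further ones. GGTCACACT, known as promoter motif 1, a core promoter motif of broadly expressed fly genes, was present on either strand in 15 of 88 respiratory promoters (17%), against 6.04% of all protein-coding promoters. It was in 1 of the 24 promoters of genes with an L suffix and in 14 of the 64 without one (21.9%). It was held by 4 of 20 bound respiratory promoters (20%) and by 8 of 51 with no listed peak (15.7%). It was in none of the 20 summit windows, against 0.999% of the windows at the strongest summits of all bound genes. TATAAA was in 49 respiratory promoters (55.7%), against 45.8%, and the initiator letters TCAGTT in 12 (13.6%), against 26.1%. CGATA was in 46 (52.3%), against 47.3%. Within the group CGATA was in 14 of 20 bound promoters (70%), against 52.7% of all bound promoters.

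The shares of the other letters searched were as follows. GAGAG was in 20 respiratory promoters (22.7%), against 29.7% of all, TATCGATA in 9 (10.2%), against 9.36%, and TTANNTAA in 27 (30.7%), against 23.5%. AAACTA was in 30 (34.1%), against 27.3%, and TAAACA in 34 (38.6%), against 32.5%. By call, AAACTA was in 35% of bound respiratory promoters and in 31.4% of those with no listed peak. For TAAACA these shares were 35% and 41.2%. The E-box CACGTG was in 4 respiratory promoters (4.55%), against 4.20%, and the ETS core CCGGAA in 4 (4.55%), against 6.77%. GCGCATGC, searched for the site of NRF-1 in mammals and of its fly relative ewg, was in no respiratory promoter, against 1.05% of all. A missing match says only that the letters are not in the window.

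The 250 bases upstream of the most upstream start are shown for the 3 bound genes with the strongest peaks among those that could be printed, with the capitals used for the summit windows. They come from ND-ASHI (chrX:6679119-6679368, minus strand), ND-75 (chrX:8251688-8251937, minus strand) and ATPsynE (chr3R:14326697-14326946, plus strand), all in the direction of the gene:
ND-ASHI: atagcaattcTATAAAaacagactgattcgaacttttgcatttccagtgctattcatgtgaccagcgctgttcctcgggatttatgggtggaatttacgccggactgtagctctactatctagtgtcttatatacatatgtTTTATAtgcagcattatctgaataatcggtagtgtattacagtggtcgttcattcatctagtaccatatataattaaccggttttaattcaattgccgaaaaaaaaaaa
ND-75: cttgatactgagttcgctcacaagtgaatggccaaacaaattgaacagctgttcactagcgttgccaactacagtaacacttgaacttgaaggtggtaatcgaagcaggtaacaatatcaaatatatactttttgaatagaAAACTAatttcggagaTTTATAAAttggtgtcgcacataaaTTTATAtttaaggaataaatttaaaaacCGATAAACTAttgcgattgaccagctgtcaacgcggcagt
ATPsynE: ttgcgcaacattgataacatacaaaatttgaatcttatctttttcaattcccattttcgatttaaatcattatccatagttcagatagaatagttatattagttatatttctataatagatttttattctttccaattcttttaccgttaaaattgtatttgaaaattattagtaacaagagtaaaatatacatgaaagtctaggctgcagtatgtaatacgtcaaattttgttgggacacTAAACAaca
The ND-ASHI stretch begins within the summit window shown for that gene and shares its first TATAAA. The ND-75 stretch holds a CGATA that overlaps an AAACTA, although the ND-75 summit lies farther upstream. The ATPsynE stretch holds TAAACA as its only match, and the summit of that gene lies past its 3′ end.

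Promoters of genes with no listed peak are shown for contrast from ATPsynB (chr3L:9729749-9729998, plus strand) and its fellow stalk gene duplicate ATPsynCF6L (chr3L:5012134-5012383, minus strand), taken by alphabetical order:
ATPsynB: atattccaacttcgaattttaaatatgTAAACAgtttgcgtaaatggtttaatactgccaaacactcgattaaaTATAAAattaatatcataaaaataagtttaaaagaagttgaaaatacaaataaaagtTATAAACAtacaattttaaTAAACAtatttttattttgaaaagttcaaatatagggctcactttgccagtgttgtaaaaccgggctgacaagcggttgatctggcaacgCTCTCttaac
ATPsynCF6L: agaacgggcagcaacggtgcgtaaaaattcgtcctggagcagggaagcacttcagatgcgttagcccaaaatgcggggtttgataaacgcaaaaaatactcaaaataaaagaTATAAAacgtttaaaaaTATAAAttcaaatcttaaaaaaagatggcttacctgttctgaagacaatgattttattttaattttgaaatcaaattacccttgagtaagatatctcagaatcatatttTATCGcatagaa
Both hold TATAAA, ATPsynB holds TAAACA in 3 places and ATPsynCF6L holds CGATA, so that the letters under Broad summits also occur where no peak was listed.

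Genes that work with these complexes but carry other symbols included some of the strongest peaks of the pathway. In a list of 41 such genes 15 were bound (36.6%), 11 had a weak peak and 15 had none, beside a bound share of 22.7% in the respiratory group and 24.3% among all protein-coding genes. Among 11 subunits and carriers 6 were bound. Both cytochrome c genes had high signals: Cyt-c-d had 563, at a summit 368 bp downstream of its start shared with CG31808, and Cyt-c-p had 443, at a summit 941 bp downstream of its start. The gene blw, which encodes the alpha subunit of ATP synthase, had 367, with 187 in replicate 1 and 179 in replicate 2, so both catalytic-ring genes, blw and ATPsynbeta, were bound. The complex IV gene levy (human COX6A) had 190, the ADP/ATP carrier sesB had 124 and the complex III gene ox had 83.9. These peaks could also be given to neighbours. The summits at Cyt-c-d, levy and ox lay nearer to a start of CG31808, wmd and Dgkepsilon, and the blw summit was shared with CG42260. Cyt-c1, cype and Ant2 had weak peaks, and RFeSP, the Rieske protein, and sun, the ATP synthase epsilon subunit, had no listed peak.

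Of the 12 Krebs cycle genes, 6 were bound. Besides Fum1, which shares the ND-ASHI peak, these were the aconitase gene mAcon1 at 421, the isocitrate dehydrogenase genes Idh3g at 403 and Idh3b at 148, the citrate synthase gene kdn at 91.0 and the succinyl-CoA synthetase gene ScsbetaA at 84.2. The mAcon1 and Idh3g summits were also shared with other coding genes, but all 6 bound Krebs cycle genes had the nearest start. Of 8 assembly factors, Cox17, a copper chaperone for complex IV, was bound at 195 and Coa8 at 112. Of 10 regulators of mitochondrial gene expression, mtSSB, the single-stranded DNA binding protein of mitochondria, was bound at 358. PolrMT, mtTFB1, ewg and mtTFB2 had weak peaks from 32.1 to 71.8. TFAM, srl (the fly relative of PGC-1), Ets97D, PolG1 and PolG2 had no listed peak.

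Gene groups of like function give a further scale. Bound genes made up 20 of 88 respiratory genes (22.7%), against 26 of 73 mitochondrial ribosomal protein genes (35.6%), 11 of 33 vacuolar ATPase genes (33.3%) and 66 of 92 cytosolic ribosomal protein genes (71.7%). The median pooled signal of the bound genes was 142 in the respiratory group, against 168 for mitochondrial ribosomal, 162 for vacuolar ATPase and 223 for cytosolic ribosomal genes. A shared summit was found at 15 of the 20 bound respiratory genes, and at all 26 bound mitochondrial ribosomal genes, of which 7 had the nearest start. These groups differ in gene length, start number and neighbours, and no difference between them was tested.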

How the data were processed

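The measurements are peak lists of Broad ChIP-seq from 2 biological replicates, made from sonicated chromatin of 200 to 800 bp per the labels. The authors deposited, for dm6, a list of 30000 entries per replicate and a pooled list of peaks and background. They also gave an optimal set from the irreproducible discovery rate (IDR) step. A control alignment was used in calling, per the README the authors deposited. Aligner, peak caller and cutoff are, for all lists, not given in the sources used here. Per peak, the signal value and the −log10 q value are the authors' own, as deposited. The signal scale is not stated, so signals were ranked within a list, and ratios between the replicates' lists are given only beside those of all bound genes. The lists hold no reads, so the depth is unknown and signals carry no counting interval.

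Summits were assigned to start sites of Ensembl release 115 (BDGP6.54), within 1000 bp, with Python 3.11.15, pandas 2.3.3, numpy 2.4.6 and matplotlib 3.10.9. A replicate matched when its strongest summit lay within 100 bp (200 bp as the wider setting). Sequence came from RefSeq release 6, and all 88 start codons of the group read ATG there. Assignment and motif search were tested on simulated data. The members and lists were chosen with earlier results of these data known, and no test was made: shares of the group stand beside shares of all 13968 genes. Named are all bound genes, the weak peaks held by both replicates, and the bound genes of the other pathway list. The promoters shown are the 3 strongest printable bound genes and the first 2 without a peak by alphabet. Alternatives covered windows, start sites, peak height, overlap and each replicate's list. A longer motif for nuclear respiratory genes was searched but is not reported, since its letters had no source here.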

Additional observations from a re-analysis of the deposited data

How the results depend on the processing

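Bound respiratory genes numbered 16 at 500 bp (18.2%, against 20.8% of all genes) and 26 at 2000 bp. They numbered 20 with the most upstream start only (22.7%, against 22.4%) and 22 with any overlap of the peak interval (25%, against 25.3%). Counting each summit only for its nearest start gave 12 (13.6%, against 18.8%), and peaks above the median signal gave 11 (12.5%, against 15%). At 2000 bp the shares were 29.5% for the respiratory genes and 29.5% for all genes. Peaks above the median gave 4 bound genes in complex I (10%), 0 in complex III, 3 in complex IV (18.8%) and 0 paralogs, against 15%. The nearest start gave 5 in complex I (12.5%), 1 in complex II (12.5%) and 3 in complex IV (18.8%), against 18.8% of all genes. A window of 2000 bp gave 3 in complex III (33.3%), 5 in complex V (33.3%) and 2 paralogs (10%), against 29.5% of all genes. At 500 bp 0 paralogs were bound, against 20.8%, and interval overlap gave 3 in complex III (33.3%), against 25.3%. Requiring both replicates left 7 genes with only a weak peak (7.95%, against 12.1% of all genes). At 2000 bp a stronger peak replaced the reported one at COX7AL2 (730), COX7C (409) and ND-B22 (284).

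The strongest peaks of replicate 2 alone, as many as in the optimal set, gave 21 bound genes (23.9%, against 24.7% of all genes). ND-B18 was lost, and ND-24 and ND-42 were gained. Replicate 1 alone, taken in the same way, gave 21 (23.9%, against 25.5%), with ATPsynF gained. ND-SGDH, COX5A, SdhD and ATPsynbeta, 4 genes, were bound under every alternative run. No paired analysis was possible because the series has 1 group. The dm3 lists were not run, since no annotation in that build was used. The counts per complex are small, and peaks below the lists' lowest signals were not analysed here.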
